A study of Mus musculus with 10 samples.

Results

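Ependymal cells were the 594 cells that the authors' annotation names Ependymal, out of 68914 annotated cells (0.862%) from 10 mouse hippocampus libraries. They were taken by that name alone, and they make up the whole of cluster 4, which holds 0 cells of any other class. With 16 classes in the annotation, the ependymal class ranked 12th by number of cells, next to the 604 other immune cells and the 696 pericytes. The annotation table holds names and map positions and no gene values, so the class name could not be set against Foxj1 and Ccdc153, genes that mark ciliated ependymal cells. No gene is reported with a value.

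Ependymal cells form the ciliated epithelium that lines the ventricles of the brain. Their motile cilia, built under the transcription factor Foxj1, help to move cerebrospinal fluid, and the layer separates that fluid from the tissue beneath. They descend from radial glia, as astrocytes do, and they continue into the epithelium of the choroid plexus, which secretes the fluid. The hippocampus itself borders a lateral ventricle, so that dissected hippocampi can carry strips of ventricle wall and choroid plexus.

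The animals were 11-week-old male wild-type C57BL/6 mice that had been injected in both hippocampi 3 days earlier. Vehicle was given to 4 mice, FL-NfL, the full-length neurofilament light chain, to 3, and CC-NfL, the coiled-coil stretch of that protein, to 3, each protein at 1 mg/ml. Neurofilament light chain is a structural protein of axons that is released when neurons are damaged, and the series asked how brain cells respond to it from outside. There was no arm with an unrelated protein. All mice shared injection, dissociation with actinomycin D, which blocks transcription, and sorting of live cells, so the counts are those of cells that survived these steps. Fewer cells in the tissue and fewer cells recovered from it cannot be told apart.

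The libraries held 3150 to 14141 annotated cells each, which is the depth behind every share below. In batch b1, as the labels name it, 6 libraries had 51.2% ± 10.8 (SD) of their barcodes without annotation, against 18.8% ± 1.58 in the 4 libraries of batch b2 (exact permutation p = 0.00476, two-sided, the smallest these libraries allow). Each group had libraries in both batches. The b2 libraries supplied 435 of the 594 ependymal cells and the b1 libraries 159. Of all barcodes, 1414 occurred in more than 1 library. Among ependymal cells 19 had a barcode that another library also held, and 0 of those barcodes belonged to ependymal cells in more than 1 library.

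Ependymal cells were a small class in every library, and their share was lowest after CC-NfL. In vehicle libraries 1 to 4 they made up 1.03%, 0.395%, 1.23% and 1.31% of annotated cells, from 40, 13, 120 and 115 cells. In FL-NfL libraries 1 to 3 they made up 0.924%, 0.857% and 0.892%, from 39, 27 and 101 cells. In CC-NfL libraries 1 to 3 they made up 0.278%, 0.465% and 0.700%, from 12, 28 and 99 cells. The 3 FL-NfL values lay close together inside the vehicle range. CC-NfL libraries lay below 3 of the 4 vehicle libraries, and vehicle library 2 lay between CC-NfL libraries 1 and 2.

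**Figure D1:**
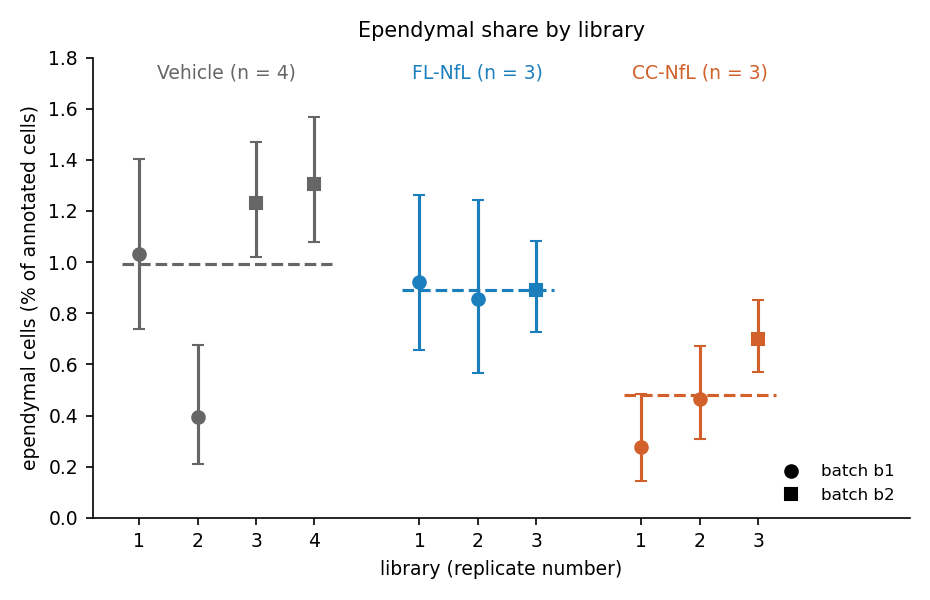
Ependymal cells as a percentage of annotated cells in each library (points), with exact Clopper-Pearson 95% intervals that cover counting error only and dashed lines at the group means. The vehicle mean was 0.991%, the FL-NfL mean 0.891% and the CC-NfL mean 0.481%, and vehicle library 2 (0.395%) sat among the CC-NfL libraries.

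The counting interval was 0.143% to 0.484% for CC-NfL library 1, the lowest share, and 1.08% to 1.57% for vehicle library 4, the highest. These exact Clopper-Pearson intervals cover counting error only. Vehicle libraries differed from each other by more than counting gives, with an SD of 0.414 percentage points against a counting SD of 0.128. CC-NfL libraries had an SD of 0.212 against 0.0796 from counting. FL-NfL libraries had an SD of 0.0335, below the 0.137 expected from counting alone. Each of these SDs spans both batches. Within batches, the 2 vehicle libraries of b1 had an SD of 0.451 against 0.138 from counting, and the 2 of b2 0.0548 against 0.116.

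After FL-NfL the ependymal share was 0.891% ± 0.0335 (SD, n = 3) against 0.991% ± 0.414 (SD, n = 4) after vehicle. The log2 odds ratio from limma, fitted over all 16 classes with group and batch as terms, was 0.09 (SE 0.43, 95% interval -0.90 to 1.08, adjusted p = 0.993). In this comparison 12.5% of the classes were called at an adjusted p under 0.05, and the ependymal class was not among them. The sign was not stable, since the mean percentage was 0.899 times that of vehicle (exact permutation p = 0.800, two-sided). The interval runs from about the size of the CC-NfL estimate on one side to the same size on the other, so these libraries do not fix the effect of FL-NfL more closely than that.

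After CC-NfL the share was 0.481% ± 0.212 (SD, n = 3), 0.485 times the vehicle mean. The log2 odds ratio was -0.89 (SE 0.43, 95% interval -1.88 to 0.10) and did not pass the test (limma adjusted p = 0.289, unadjusted p = 0.0723). Limma called 0% of the 16 classes in this comparison, where 3 had an unadjusted p under 0.05, and 0 were called by a quasi-binomial model. The ependymal estimate was the second lowest of the 16, where the median over classes was -0.11. The quasi-binomial model, which weights libraries by their cells, gave -0.92 (SE 0.27, adjusted p = 0.0587). By exact permutation of the percentages the two-sided p was 0.143, where 0.0286 is the smallest possible. Without the 3 libraries numbered 1, an alternative chosen after seeing the data, limma's estimate was -0.46 (adjusted p = 0.764).

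FL-NfL libraries all held a larger ependymal share than CC-NfL libraries, at 0.857% to 0.924% against 0.278% to 0.700%. The groups did not overlap, as was true of 18.8% of the classes in this comparison. The log2 odds ratio of FL-NfL over CC-NfL was 0.98 (SE 0.46, 95% interval -0.07 to 2.03, limma adjusted p = 0.378). The exact permutation p was 0.10, which is the smallest that 3 against 3 libraries allow. As a share of all barcodes, annotated or not, the groups overlapped (exact permutation p = 0.5). Limma called 0% of the classes here and the quasi-binomial model 0, while 1 class had an unadjusted p under 0.05.

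With both proteins together the share was 0.686% ± 0.262 (SD, n = 6), and the odds changed by -0.40 on the log2 scale (limma, SE 0.37, 95% interval -1.24 to 0.44, adjusted p = 0.823). The percentages differed by -0.305 points (exact permutation p = 0.195). Without vehicle replicate 2 the exact permutation p was 0.0238 and the difference -0.504 points. In that fit limma's log2 odds ratio was -0.76 (adjusted p = 0.215), so this 1 library decided whether the permutation test passed 0.05.

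Within batches the order of the groups was not the same. In b1, with 2 libraries a group, the mean share was 0.714% in vehicle, 0.891% in FL-NfL and 0.371% in CC-NfL libraries. In b2 the 2 vehicle libraries averaged 1.27%, the 1 FL-NfL library held 0.892% and the 1 CC-NfL library 0.700%. By these means CC-NfL was lowest in both batches, while FL-NfL stood above vehicle in b1 and below it in b2. Both b1 FL-NfL libraries (0.924% and 0.857%) lay between the 2 b1 vehicle libraries (1.03% and 0.395%). The place of vehicle in b1 thus rested on its library 2 (0.395%), which lay below CC-NfL library 2 (0.465%). The FL-NfL effect in b2 minus that in b1 was -0.98 on the log2 scale (limma adjusted p = 0.980, interval -3.36 to 1.40), and for CC-NfL it was -0.03 (adjusted p = 0.974). Across all groups the ependymal share was 1.03% ± 0.285 in b2 and 0.659% ± 0.317 in b1 (exact permutation p = 0.0952), with a limma estimate of 0.68 (SE 0.37, adjusted p = 0.537). Limma called 6.25% of the classes between batches, a single class that was not the ependymal one. The share of unannotated barcodes moved with batch as given above, and its part in the ependymal share was not tested.

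Shares of a fixed total fall when another class grows, so ependymal cells were also set against each of the other 15 classes in turn. Astrocytes, like ependymal cells, descend from radial glia. Per 100 astrocytes, vehicle libraries 1 to 4 held 21.1, 21.3, 15.0 and 15.1 ependymal cells. FL-NfL libraries 1 to 3 held 21.7, 25.5 and 14.6. CC-NfL libraries 1 to 3 held 5.29, 23.3 and 17.0. Apart from CC-NfL library 1, with 12 ependymal cells and 227 astrocytes, the b1 libraries ran from 21.1 to 25.5 and the b2 libraries from 14.6 to 17.0. With that library the batches were 19.7 ± 7.25 and 15.4 ± 1.10 (exact permutation p = 0.305). Vehicle library 2, low in ependymal cells as a share, was also low in astrocytes at 1.85%, and its ratio was like that of vehicle library 1.

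Against vehicle the log2 ratio of ependymal cells to astrocytes changed by 0.12 after FL-NfL (SE 0.63, limma adjusted p = 1.00) and by -0.51 after CC-NfL (SE 0.63, adjusted p = 0.590). The CC-NfL estimate rested on its library 1: without it the value was 0.16 (SE 0.33, 95% interval -0.62 to 0.93, adjusted p = 0.812). The direction of the ependymal share itself did not turn without that library, at a log2 odds ratio of -0.67 (adjusted p = 0.599).

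Choroid cells, the epithelium of the choroid plexus, did not move in step with ependymal cells. Per 100 choroid cells there were 6.69, 11.4, 10.2 and 44.6 ependymal cells in vehicle libraries 1 to 4. The FL-NfL libraries held 32.2, 7.69 and 24.8, and the CC-NfL libraries 8.45, 5.96 and 7.28. Vehicle and FL-NfL libraries spread over several-fold, while the CC-NfL libraries lay near each other at the low end. The log2 ratio changed by 0.54 for FL-NfL (SE 0.72) and by -0.80 for CC-NfL (SE 0.72, 95% interval -2.38 to 0.78), with limma adjusted p-values of 1.00 and 0.590, and FL-NfL over CC-NfL gave 1.34 (SE 0.77, adjusted p = 0.344).

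NPC, a name the annotation does not spell out and read here as neural progenitor cells, varied most of the 3. Per 100 NPC, ependymal cells numbered 6.16, 14.6, 67.4 and 43.9 in vehicle libraries 1 to 4. They numbered 6.83, 33.8 and 15.9 in FL-NfL libraries and 1.35, 18.4 and 11.9 in CC-NfL libraries. In each group the library numbered 1 was the lowest, and those 3 libraries were the richest in NPC. The log2 ratio changed by -0.32 after FL-NfL (SE 0.95, limma adjusted p = 1.00) and by -1.52 after CC-NfL (SE 0.95, adjusted p = 0.491).

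**Figure D2:**
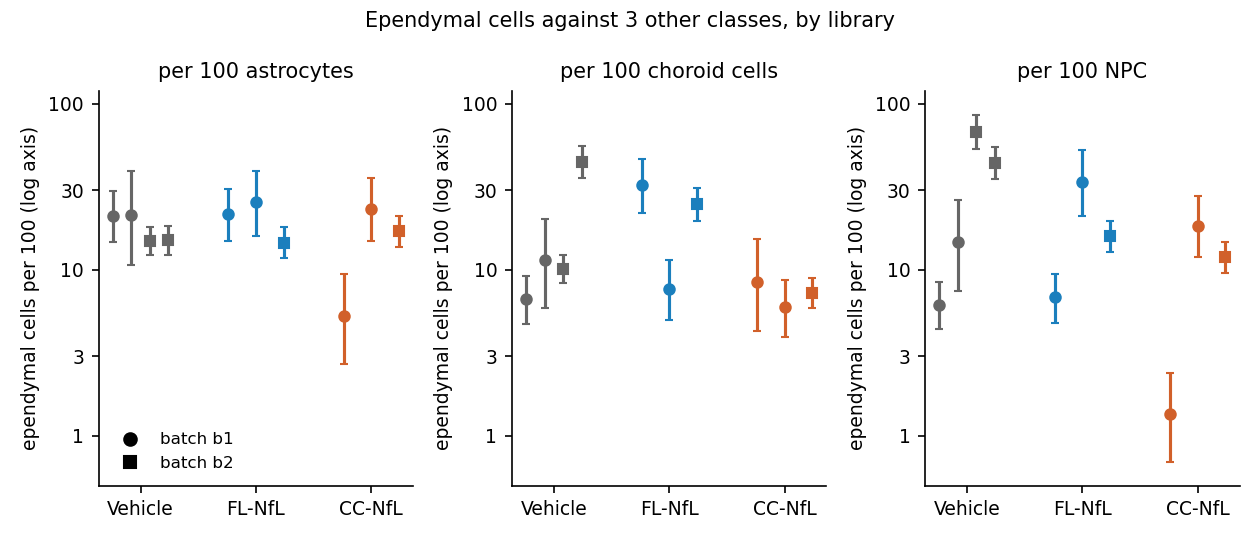
Ependymal cells per 100 astrocytes, choroid cells and NPC in each library, on log axes, with 95% intervals from exact Clopper-Pearson limits of the 2 counts. Values per 100 astrocytes lay between 14.6 and 25.5 in 9 libraries and at 5.29 in CC-NfL library 1, while those per 100 choroid cells and NPC spread far more widely.

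Of the immune classes, macrophages and other immune cells gave ratios that separated the groups, and microglia did not. Per 100 microglia, vehicle libraries held 1.05 to 4.26 ependymal cells, FL-NfL libraries 2.24 to 3.58 and CC-NfL libraries 0.843 to 2.39, and the groups overlapped. That log2 ratio changed by 0.14 after FL-NfL (SE 0.60, limma adjusted p = 1.00) and by -0.90 after CC-NfL (SE 0.60, adjusted p = 0.491). Per 100 macrophages, vehicle libraries 1 to 4 held 64.5, 25.0, 80.0 and 125 ependymal cells. The FL-NfL libraries held 9.68, 15.6 and 12.7, and the CC-NfL libraries 14.3, 10.6 and 12.0. All 6 NfL libraries lay below every vehicle library, and the 2 proteins gave nearly the same range. The macrophage share by itself also separated them, at 1.05% to 1.60% in vehicle and 1.94% to 9.55% in NfL libraries. Such separation of shares held for 6.25% of the classes, and it was not counted over the 15 ratios. The log2 ratio fell by 2.26 after FL-NfL (-2.26, SE 0.61, limma adjusted p = 0.0464) and by 2.27 after CC-NfL (-2.27, SE 0.61, adjusted p = 0.0449), and for both together it was -2.26 (SE 0.52, adjusted p = 0.0141).

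Per 100 other immune cells, a class left undivided, vehicle libraries held 92.9 to 500 ependymal cells, FL-NfL libraries 60.0 to 67.5 and CC-NfL libraries 45.9 to 92.3. Again all 6 NfL libraries lay below every vehicle library, with CC-NfL library 1 (92.3) next to vehicle library 2 (92.9). That ratio passed for both proteins together (-2.07, SE 0.55, limma adjusted p = 0.0220). It did not pass for FL-NfL (-2.06, adjusted p = 0.0637) or CC-NfL (-2.08, adjusted p = 0.0601). Limma called 6.67% of the 15 ratios for FL-NfL, 6.67% for CC-NfL, 13.3% for both together and 0% between the proteins, where 0 had an unadjusted p under 0.05. The 15 ratios share the ependymal count and are not independent.

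These ratios hold changes of both classes. After FL-NfL the macrophage share rose (log2 odds ratio 2.44, limma adjusted p = 0.0103) while the ependymal estimate was 0.09. After CC-NfL the macrophage estimate was 1.43 (adjusted p = 0.174) and the ependymal estimate -0.89, and neither passed alone. With both proteins together the shares of macrophages (1.93, limma adjusted p = 0.0162) and other immune cells (1.68, adjusted p = 0.0341) rose. The ependymal estimate was then -0.40 (limma adjusted p = 0.823). The FL-NfL call ended when any library other than vehicle replicate 2 or CC-NfL replicate 1 was left out (adjusted p 0.0785 to 0.413). The CC-NfL call ended without any library other than vehicle replicate 2, FL-NfL replicate 1 or CC-NfL replicate 1 (0.0741 to 0.519). For both proteins the macrophage call ended without vehicle replicates 1, 3 or 4, FL-NfL replicate 3 or CC-NfL replicate 3 (0.0571 to 0.0932), and the call for other immune cells without those or CC-NfL replicate 2 (0.0592 to 0.121). The estimates without a library ran from -1.85 to -2.73. With the replicate number as a block in place of batch, the change per macrophage was -2.03 for FL-NfL (adjusted p = 0.0876) and -2.04 for CC-NfL (adjusted p = 0.123), while both calls for the proteins together passed (adjusted p = 0.0467). Vehicle replicate 4 has no same-numbered library in the other groups. The block's estimates therefore equal those without that library, where neither call for the proteins together passed (limma adjusted p = 0.0610 for both). Limma pooled the spread over the 15 ratios, which share the ependymal count, so its p-values may be too small. The 2 passes with the block are therefore not firm. In b1 alone, with 6 libraries, 0 of these 4 calls passed (adjusted p 0.776 to 0.921), at estimates of -1.71 to -1.42. The mean number per 100 macrophages there was 44.8 in vehicle, 12.6 in FL-NfL and 12.4 in CC-NfL libraries, while b2 gave 102.5, 12.7 and 12.0 in the same order. For both proteins the exact permutation p was 0.00476, the smallest possible, and 0.0190 after adjustment over the 4 comparisons, and it was 0.0571 for each protein alone. This adjustment does not cover the choice of macrophages among the 15 ratios, made after their values were seen. These permutation p-values are thus no separate evidence for that ratio.

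**Figure D3:**
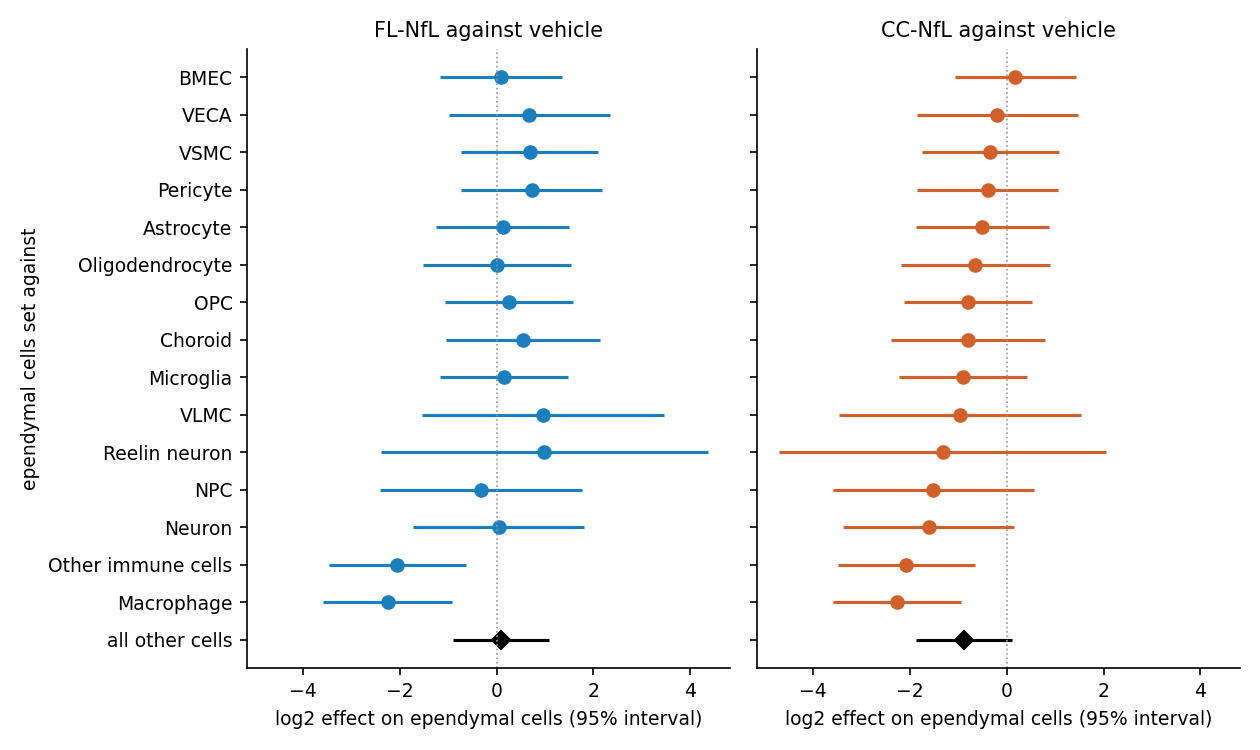
Change of ependymal cells relative to all other cells (black diamonds) and to each of 15 classes (points), as log2 odds ratios or log2 ratios with limma's 95% intervals, for each protein against vehicle. After FL-NfL 4 of the 15 ratios lay below 0 and after CC-NfL 14 of 15. The ratio to macrophages was lowest in both panels.

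Of the 15 ratios, 4 had a negative and 11 a positive estimate after FL-NfL, with a median of 0.14. After CC-NfL 14 were negative and 1, that to BMEC, was positive (0.18, SE 0.57), with a median of -0.80. BMEC are read here as brain microvascular endothelial cells. Both sets share the vehicle libraries and the ependymal counts, and no test was made of these counts of signs.

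Over the 10 libraries, astrocytes had the highest rank correlation with ependymal cells in log2 odds. Pearson's r was 0.62 (permutation p = 0.0569) and Spearman's rho 0.67 (permutation p = 0.0404), with adjusted values of 0.390 and 0.501 over the 15 classes. Without CC-NfL library 2 and vehicle library 2, the 2 libraries farthest from the median in astrocytes, r was 0.36. Leaving these out also narrows the range of astrocyte shares, so this fall does not show whether the relation rests on those samples. Without CC-NfL library 1, left out after its values were seen, r was 0.94. Within the 6 libraries of b1 r was 0.28, and b2 holds too few libraries for a value. BMEC had an r of 0.60 over all 10 libraries and 0.75 within b1. For BMEC r was 0.22 without CC-NfL libraries 1 and 3, the 2 farthest in BMEC, and 0.23 without CC-NfL library 1 alone. VECA, a name the annotation does not spell out, had 0.58 over all and 0.56 within b1. For VECA r was 0.65 without CC-NfL library 1 and FL-NfL library 1, and 0.44 without CC-NfL library 1 alone. The first place of astrocytes thus depends on the measure and the libraries. By the SD of the log2 ratio to ependymal cells, BMEC (0.61) came before astrocytes (0.64). The astrocyte share was 6.77% ± 2.09 in b2 and 3.61% ± 1.45 in b1, a difference that did not pass in limma (0.97 on the log2 scale, adjusted p = 0.452, with an unadjusted exact permutation p of 0.0286). The lowest correlation was that with OPC, the precursors of oligodendrocytes (r = -0.52, permutation p = 0.122, rho = -0.52, permutation p = 0.134, adjusted 0.397 and 0.501), at -0.57 without CC-NfL library 3 and vehicle library 2 and -0.69 within b1. For choroid cells r was 0.29 and rho 0.15 (permutation p = 0.410 and 0.680, adjusted 0.667 and 0.845), and r fell to -0.01 without vehicle libraries 1 and 3 and was 0.55 within b1. For NPC r was -0.24 and rho -0.15 (permutation p = 0.506 and 0.684, adjusted 0.690 and 0.845), with 0.08 without CC-NfL library 1 and vehicle library 1 and 0.07 within b1. None of the 15 relations passed after adjustment.

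The spread between libraries of a group can be set against counting error for each class. For ependymal cells the variance within groups was 4.54 times that of counting, the lowest of the 16 classes, while it was 201 times for choroid cells and 468 times for NPC. This ratio grows with the number of cells. The coefficient of variation over the 10 libraries, which does not carry the number of cells in the same way, was 42.9% for ependymal cells, seventh lowest of 16, against 47.3% for astrocytes, 64.1% for choroid cells and 91.6% for NPC.

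On the authors' t-SNE map, a projection that places cells with like expression near each other, ependymal cells formed 1 compact patch. The patch covered 4.02% of the map's width and 5.51% of its height, and no ependymal cell lay more than 1.93 map units from its centre. Distances on such a map have no unit and are not to scale between patches. Of the 594 cells, 585 had only ependymal cells among their 30 nearest annotated neighbours. The other 9 each had 1 astrocyte among the 30, and whether it was the same astrocyte was not looked at. Choroid cells, though joined to the ependyma in the tissue, were not among the neighbours of any ependymal cell. Such purity was general on the map. Own-class neighbours made up 99.6% to 100% in all 16 classes, and the ependymal class ranked 10th at 99.9%. By median distance of cells from the centre its patch was the 5th smallest.

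Every library contributed cells to the patch. Membership of the cluster and place on the map come from the same expression values, so the near absence of other neighbours is a description and was near its upper limit in every library. Within the patch, the median position of a library along the first map axis was 15.59 to 15.90 in the 4 libraries of b2 and 15.91 to 16.34 in the 6 of b1, with no overlap. The difference was -0.35 map units (exact permutation p = 0.00476, the smallest possible, and 0.0476 after adjustment over 10 comparisons of 2 axes). Leaving out any 1 library gave -0.40 to -0.30. Exact permutation p-values were then 0.00794 to 0.0238 unadjusted and 0.0794 to 0.238 after the same adjustment, so the call ended each time. With 1 library fewer, the smallest p the test allows is above 0.05 after this adjustment unless other comparisons are small too. The ended calls therefore could not show whether the difference rests on 1 library. Along the second axis b2 minus b1 was -0.45 (exact permutation p = 0.0429, 0.214 after adjustment). The 8 comparisons between treatment groups had unadjusted exact permutation p-values of 0.300 to 0.867 when batch was ignored. Within batches, every FL-NfL median lay below every vehicle median on the first axis, at 15.91 to 16.01 against 16.07 to 16.34 in b1 and 15.59 against 15.73 to 15.75 in b2. With labels exchanged only within batches, the difference was -0.21 map units (exact permutation p = 0.0556, the smallest that 18 arrangements allow, and 0.356 after adjustment over the 8). The other 7 had unadjusted p-values of 0.0889 to 0.889 by that test. This look at positions was chosen after the map had been seen, and map positions carry no gene values.

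In every b1 library, neighbours within the patch came from the same batch more often than that batch's share of cells. Of the ependymal neighbours that came from other libraries, the share from the same batch was 1.20 to 1.37 times the share of that batch's cells in 6 of 6 b1 libraries and 0.981 to 1.06 times in b2, where 2 of 4 were above 1. Among ependymal cells of the other libraries, the same batch made up 21.5% to 25.3% for b1 libraries and 66.5% to 67.9% for b2 libraries. The ratio thus had less room to rise in b2. For neighbours from the same treatment group the corresponding ratio was 0.952 to 1.21, with a median of 1.07 over 10 libraries. The label for batch does not say what differed, and batches also differed in annotated cells per library, at 11008 ± 2334 in b2 and 4147 ± 1036 in b1.

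**Figure D4:**
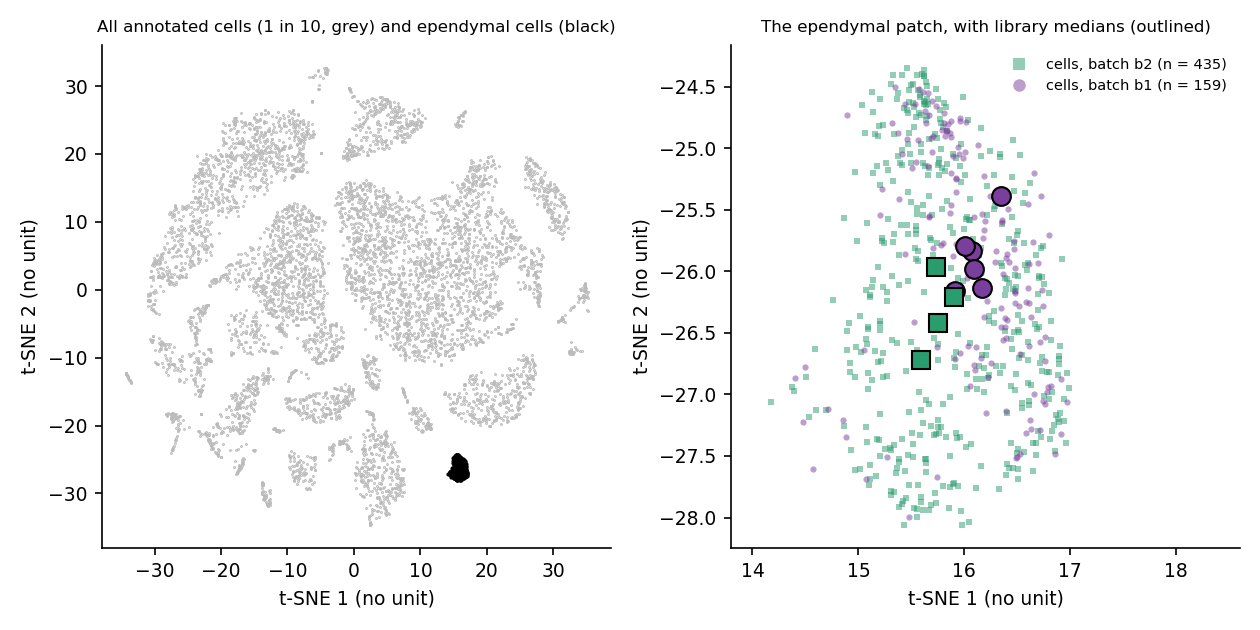
Left, the authors' t-SNE map with 1 in 10 of all annotated cells in grey and all ependymal cells in black. Right, the ependymal patch alone, with cells and library medians (outlined) by batch: the medians of the 4 b2 libraries lie at 15.59 to 15.90 on the first axis and those of the 6 b1 libraries at 15.91 to 16.34.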

How the data were processed

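Droplet 3′ libraries of 10 mice, 1 per mouse, were processed with Cell Ranger 6.0.1 against GRCm38, per the submitters' processing notes. The deposited table gives a library for 108266 barcodes and a class, a cluster and map positions for 68914. Map positions (2 t-SNE axes) are a score without unit, made by the authors. Cell filters, doublet treatment, clustering and naming rules: not given in the sources used here. Condition and batch matched the labels in all 68914 annotated cells.

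Cells were counted per library and class in pandas 2.3.3. The log2 odds, log2((cells + 0.5) / (other cells + 0.5)), and the log2 ratios of ependymal cells to each other class (0.5 added) were modelled over all 10 libraries by limma 3.58.1 under R 4.3.3, with terms for group and batch. P-values were adjusted by the Benjamini-Hochberg method over 16 classes or 15 ratios, with a threshold of 0.05. Classes needed a mean of 10 cells per library. Single values were compared by exact two-sided permutation over libraries (for map positions also within batches, an alternative chosen after seeing the data), and correlations by 100000 permutations. Neighbours were the 30 nearest on the map (scikit-learn 1.9.0). The fit of the ependymal share, for CC-NfL against vehicle, was tried on simulated data that held no batch or replicate effects. The fits of ratios and of the replicate block were not tried in this way. Choroid cells, NPC and astrocytes were named by rule, as were the classes with the highest and lowest correlation. Macrophages, other immune cells, microglia, BMEC and VECA were named after their values were seen. The cell class and the lists were chosen with earlier results of these data known.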

Additional observations from a re-analysis of the deposited data

Results flagged for a closer look

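Gaps in 18 sets of libraries (6 quantities among vehicle, b1 and b2 libraries) were checked with Dixon's 95% limits, and 3 stood out. Chance gives about 1 in 20 sets only where values follow a normal distribution and sets are independent. Neither was shown here: the sets share libraries, and ratios were not put on the log2 scale of the fits. The rate is thus no guide to how many of the 18 sets to expect. Whether the 3 flags hold on the log2 scale was not tested. Vehicle library 4 held 44.6 ependymal cells per 100 choroid cells, where the other vehicle libraries held 6.69 to 11.4. FL-NfL library 1 held 32.2 per 100 choroid cells, where the other b1 libraries held 5.96 to 11.4. These 2 libraries were also the poorest in choroid cells, at 2.93% and 2.87% of annotated cells. CC-NfL library 1 held 5.29 ependymal cells per 100 astrocytes, where the other b1 libraries held 21.1 to 25.5, and its counting interval of 2.69 to 9.42 stayed below their values.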

How the results depend on the processing

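The ependymal share did not pass the threshold in any of 4 comparisons under 21 alternatives each, the quasi-binomial model included, nor did the ratio to choroid cells under 15 each. The CC-NfL estimates stayed negative throughout, with an adjusted p of 0.0587 to 0.937 for the share. For FL-NfL against vehicle the log2 odds ratio turned to -0.020 with no batch term, -0.27 in the quasi-binomial model and -0.095 over all barcodes, and the ratio to choroid cells to -0.17 without the 3 libraries numbered 1, an alternative chosen after seeing the data. For both proteins the ratio to choroid cells turned to 0.32 with the replicate block and 0.27 in b1 only. The block gives the same estimate as leaving out vehicle replicate 4, so the 2 are not separate checks. The percentage difference for FL-NfL turned to 0.0164 without immune classes in the denominator (exact permutation p = 1).

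Leaving out 1 library at a time, the log2 odds ratio ran from -0.27 to 0.46 for FL-NfL, -1.26 to -0.65 for CC-NfL, 0.74 to 1.30 between the proteins and -0.76 to -0.16 for both. It turned for FL-NfL without vehicle replicate 2 (-0.27) and FL-NfL replicate 1 (-0.05). The ratio to choroid cells for both proteins ran from -0.43 to 0.32 and turned without vehicle replicate 4 (0.32), FL-NfL replicate 2 (0.10) and CC-NfL replicate 3 (0.09). The percentage difference ran from -0.299 to 0.00526 for FL-NfL, the latter without vehicle replicate 4, and from -0.504 to -0.200 for both.

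Same-numbered libraries of different groups had deviations that correlated at -0.13 to 0.54 over classes (median 0.20), against a median of -0.12 for the 24 other pairs. The correlation was above 0.1 in 3 of 3 pairs of FL-NfL and CC-NfL, 3 of 3 of vehicle and CC-NfL, and 1 of 3 of vehicle and FL-NfL. Same-numbered libraries also share a batch. With the replicate block, to which vehicle replicate 4 adds nothing, the ependymal log2 odds ratio was 0.16 for FL-NfL, -0.83 for CC-NfL and -0.34 for both. Among the ependymal share, the ratio to choroid cells and the 4 called ratios, the block changed only the calls per macrophage for each protein alone. No block result is given here for the shares of other classes. Without the libraries numbered 1, which leaves 7, 0 of the 4 called ratios passed (adjusted p 0.0988 to 0.273), with estimates of -2.35 to -2.04, near those from all libraries. The lowest library counts, 12 and 13 ependymal cells, bound the precision of single values, and the spread between vehicle libraries of both batches together exceeded counting error.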
